A study of Mus musculus with 25 samples.

Results

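Feces of ovariectomised mice given GEX were compared with feces of ovariectomised mice that were not given it, by the bacterial 16S rRNA gene sequences they held. The 5 libraries of the OVX+GEX group were set against the 5 libraries of the OVX group, 10 of the 25 libraries of the study, and the groups were taken from the sample titles. The mice were C57BL/6, and the other groups were Sham, OVX+PBS and OVX+FMT, with 5 libraries each. The title of the study names osteoporosis, a traditional decoction medicine and the metabolite trimethylamine N-oxide (TMAO), and its design names estrogen deficiency. OVX stands for ovariectomy, removal of the ovaries, and GEX keeps its label's spelling, since no label explains it. The sources used here give no dose, duration, vehicle, age, cage or litter, and the sex field reads male for every sample, at odds with ovariectomy, so the sex of the mice is not stated. The 5 table columns of the treated group are spelled OVX+GES and were taken as OVX+GEX from the otherwise identical name and number.

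The mouse colon is populated mainly by Bacteroidetes of the family Muribaculaceae, which use complex carbohydrates, and by clostridia, many of which ferment fibre to short-chain fatty acids such as butyrate. Lactobacilli live higher in the gut and are shed into feces. Some bacteria cleave choline or carnitine to trimethylamine, which the liver oxidises to TMAO, and this trait differs between strains, so a genus name does not show whether the enzyme is present.

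The table counted amplicon sequence variants (ASVs, distinct amplicon sequences after error removal). Library totals ran from 9189 to 11252 counts in OVX (median 10123) and from 8498 to 10771 in OVX+GEX (median 9977). A count of 0 allows up to 3 counts of a library's total, which covers counting error only. Levels are shares of a library's counts in percent, so a lower share of one genus and a higher sum of the others cannot be told apart, and shares of different genera also depend on how many 16S copies each carries. Library 2 of each group held the most Lachnospiraceae and the least Duncaniella of its group, 38.6% and 11.3% in OVX 2, and 32.1% and 1.87% in OVX+GEX 2. By mean Bray-Curtis distance to the rest of their own group, the farthest libraries were OVX+GEX 2 (0.603), OVX 1 (0.562) and OVX 2 (0.554). Nothing says whether mice shared a cage, and each p-value therefore reflects only how these libraries spread.

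No genus passed the test in the GEX comparison, and the groups overlapped for nearly every one. Under edgeR's quasi-likelihood test 0 of 81 genera tested had an adjusted p under 0.05 (0%), and 5 had an unadjusted p under 0.05 (6.17%). These 5 were Haploplasma, Lactobacillus and Eubacterium, with lower estimates under GEX, and Shigella and Aminipila, with higher ones. At the other ranks 0 of 125 species (0%), 0 of 28 families (0%) and 0 of 379 ASVs (0%) passed, with 10 species (8%), 3 families (10.7%) and 73 ASVs (19.3%) at an unadjusted p under 0.05. DESeq2 called 0 genera and 2 ASVs, and limma on centred log-ratios called 1 genus, 1 family and 0 ASVs. The count of 73 ASVs at an unadjusted p under 0.05 depended on the method. It was 21 of 379 with DESeq2, 27 with limma and 42 in edgeR with replicate number as a block. The median log2 fold change over the 81 genera was 0.13, with 45 estimates higher and 35 lower under GEX and 1 at 0 for a genus without counts in these libraries. With plain library totals in place of TMM the median was -0.03, with 37 higher and 43 lower, so estimates near 0 have no settled direction.

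**Figure D1:**
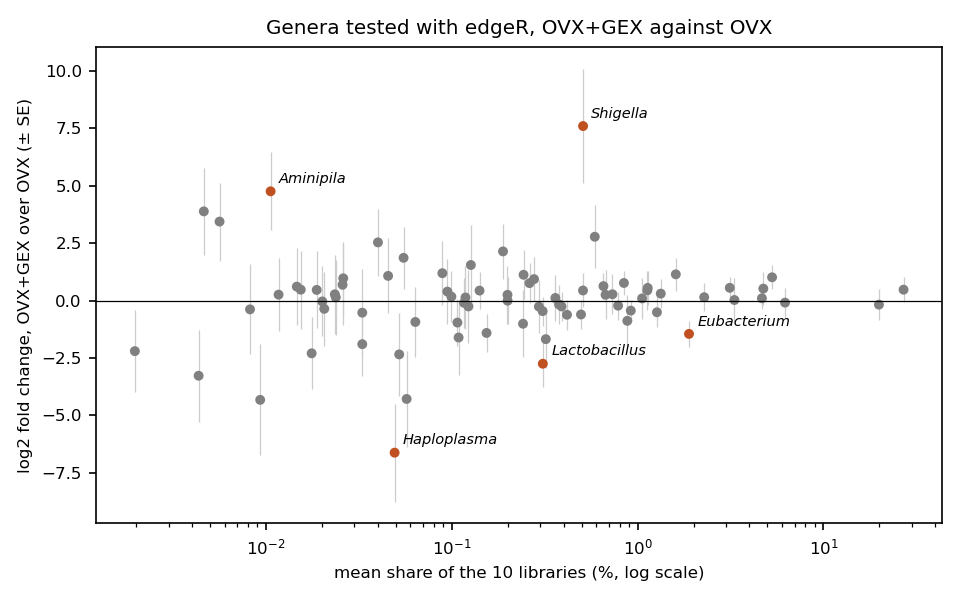
Log2 fold change (OVX+GEX over OVX, with its standard error) of the 81 genera tested, but for 1 without counts in these libraries, against their mean share in percent on a log axis. Each point is 1 genus, and orange points have an unadjusted p under 0.05. Shigella and Aminipila lie above 0 and Lactobacillus, Eubacterium and Haploplasma below it, and Eubacterium is the most abundant of the 5.

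Distances between the groups were about as large as distances within them. The mean Bray-Curtis distance (0 for identical communities, 1 for none shared) was 0.505 between OVX and OVX+GEX libraries, 0.497 among OVX libraries and 0.537 among OVX+GEX libraries. Group accounted for a share R2 of 0.0909 of the distances (exact permutation test, p = 0.643, adjusted p = 0.771 over 6 community measures, where 5 against 5 allows a smallest p of 0.00794). ASV richness at 8498 counts was 252.3 ± 39.2 in OVX and 230.5 ± 51.1 in OVX+GEX (SD, n = 5 each; two-sided exact permutation test, adjusted p = 0.771). The difference of -21.8 ASVs was -5.24 without OVX 2 and -40.2 without OVX+GEX 1. The Shannon index, a measure of evenness and number, was 4.35 ± 0.32 and 4.27 ± 0.37 (SD, n = 5 each; adjusted p = 0.794 by the same exact test), and the difference of -0.08 became 0.06 without OVX 2. On the log2 scale, Firmicutes over Bacteroidetes came to 1.66 ± 0.97 and 2.76 ± 2.08 (adjusted p = 0.771, exact permutation test, n = 5 each). That difference of 1.10 was 0.389 without OVX+GEX 2, 0.713 without OVX 1 and 1.70 without OVX+GEX 5. The most abundant ASV held 6.16% ± 1.49 and 6.98% ± 1.92 of a library (SD, n = 5 each; adjusted p = 0.771, exact permutation test), and the difference of 0.816 percentage points lay between 0.30 without OVX 2 and 1.60 without OVX+GEX 2.

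**Figure D2:**
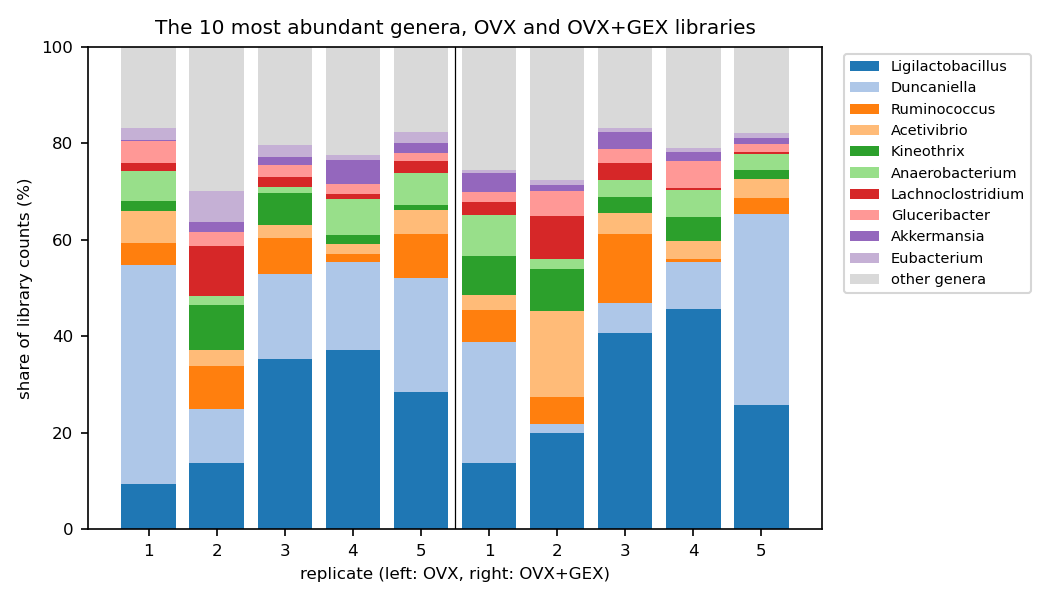
Stacked bars of the 10 most abundant genera in the 5 OVX and 5 OVX+GEX libraries, in percent of library counts, with the remaining genera on top. Duncaniella and Ligilactobacillus together held 24.97% to 55.5% of an OVX library and 21.8% to 65.3% of an OVX+GEX library, with the lowest sum of each group in its library 2.

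Duncaniella and Ligilactobacillus led the community in both groups. Duncaniella, a carbohydrate user of the Muribaculaceae, held 45.4%, 11.3%, 17.8%, 18.3% and 23.6% of OVX libraries 1 to 5, and 25.2%, 1.87%, 6.23%, 9.64% and 39.6% of OVX+GEX libraries 1 to 5. The 3 lowest values were all in OVX+GEX, but OVX+GEX 5 was above 4 of the OVX libraries. The log2 fold change was -0.18 (SE 0.69, edgeR adjusted p = 0.979), and leaving out single libraries moved it between -1.24 and 0.23. Ligilactobacillus, lactic acid bacteria of the rodent gut, held 9.36%, 13.7%, 35.2%, 37.1% and 28.5% in OVX and 13.7%, 20.0%, 40.8%, 45.7% and 25.8% in OVX+GEX. Libraries 3 and 4 were the highest and library 1 the lowest in both groups, and the log2 fold change was 0.47 (SE 0.55, edgeR adjusted p = 0.906).

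The other abundant genera overlapped between the groups in the same way. Ruminococcus, a genus with fibre-degrading members, averaged 6.34% ± 3.17 in OVX and 6.09% ± 5.09 in OVX+GEX (SD, n = 5 each), and its direction depended on the scaling. Anaerobacterium, a cellulose-associated clostridial genus, averaged 4.72% ± 2.82 and 4.61% ± 2.49, also with no settled direction. Gluceribacter averaged 2.79% ± 1.06 and 3.48% ± 1.77, and Akkermansia, a mucin degrader, 2.24% ± 1.72 and 2.33% ± 1.22. The lowest edgeR adjusted p among these was 0.875. Among families, Lachnospiraceae averaged 18.5% ± 11.7 in OVX and 18.0% ± 8.79 in OVX+GEX, and Oscillospiraceae 18.1% ± 4.21 and 20.7% ± 8.65. The tested genera inside these families split evenly by sign, 12 higher and 11 lower in Lachnospiraceae and 9 and 9 in Oscillospiraceae. The remaining families of at least 1% were Lactobacillaceae at 25.3% ± 13.0 and 29.2% ± 13.7, Muribaculaceae with Duncaniella as its only tested genus, Eubacteriaceae with Eubacterium alone, Akkermansiaceae with Akkermansia alone, Bacteroidaceae at 1.03% ± 0.471 and 1.24% ± 1.16, Peptococcaceae at 1.22% ± 0.702 and 1.45% ± 0.950, and sequences with Eubacteriales in the family field at 1.32% ± 0.784 and 2.23% ± 1.11. Family fold changes moved with the scaling and are not given.

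Eubacterium, a genus with butyrate-forming members, was low and even under GEX. It held 2.45%, 6.46%, 2.34%, 0.938% and 2.26% of OVX libraries 1 to 5 and 0.639%, 0.992%, 0.980%, 0.741% and 1.11% of OVX+GEX libraries 1 to 5. Of the OVX libraries, 4 lay above every OVX+GEX library and OVX 4 lay among them. The log2 fold change was -1.45 (SE 0.57, edgeR unadjusted p = 0.0168, adjusted p = 0.272), and it was -0.81 without OVX 2. Most of the genus was named Eubacterium xylanophilum, a xylan user, which is described after its values were seen because its groups did not overlap. This species held 1.29%, 5.39%, 2.13%, 0.859% and 0.757% of the OVX libraries and 0.451%, 0.551%, 0.529%, 0.541% and 0.548% of the OVX+GEX libraries. The 5 treated libraries lay within a narrow band (0.524% ± 0.0416, SD, n = 5) below the lowest OVX library, while the OVX libraries spread widely (2.09% ± 1.93). Its log2 fold change was -1.61 (SE 0.76, edgeR adjusted p = 0.577), and it was -1.14 without OVX 2. The OVX+PBS libraries, also without GEX, held 1.64%, 2.36%, 1.77%, 0.175% and 0.396% of this species. OVX+PBS 4 and OVX+PBS 5 thus lay below every OVX+GEX library. Species with no overlap and all OVX+GEX libraries lower numbered 2 of 125 (1.6%), and 0 of 125 (0%) had all of them higher.

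Lactobacillus, lactic acid bacteria distinct from Ligilactobacillus, was scarce in every treated library. Its counts were 17, 4, 82, 106 and 60 in OVX libraries 1 to 5 and 0, 3, 10, 14 and 4 in OVX+GEX libraries 1 to 5. That is a share of 0.550% ± 0.445 in OVX and 0.0689% ± 0.0677 in OVX+GEX (SD, n = 5 each). By share the groups overlapped through OVX 1 at 0.151% and OVX 2 at 0.0361%, both below OVX+GEX 4 at 0.165%. The log2 fold change was -2.75 (SE 1.01, edgeR unadjusted p = 0.0107, adjusted p = 0.216), and it lay between -3.48 and -2.42 over all alternatives and left-out libraries. Most counts were named Lactobacillus intestinalis, a gut species of rodents, at 0.523% ± 0.478 in OVX and 0.0568% ± 0.0660 in OVX+GEX (adjusted p = 0.577). Lactobacillus iners was seen in OVX alone among these groups, at a mean of 0.0214% (adjusted p = 0.577). The treated group held its low Lactobacillus beside a mean of 29.2% Ligilactobacillus.

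**Figure D3:**
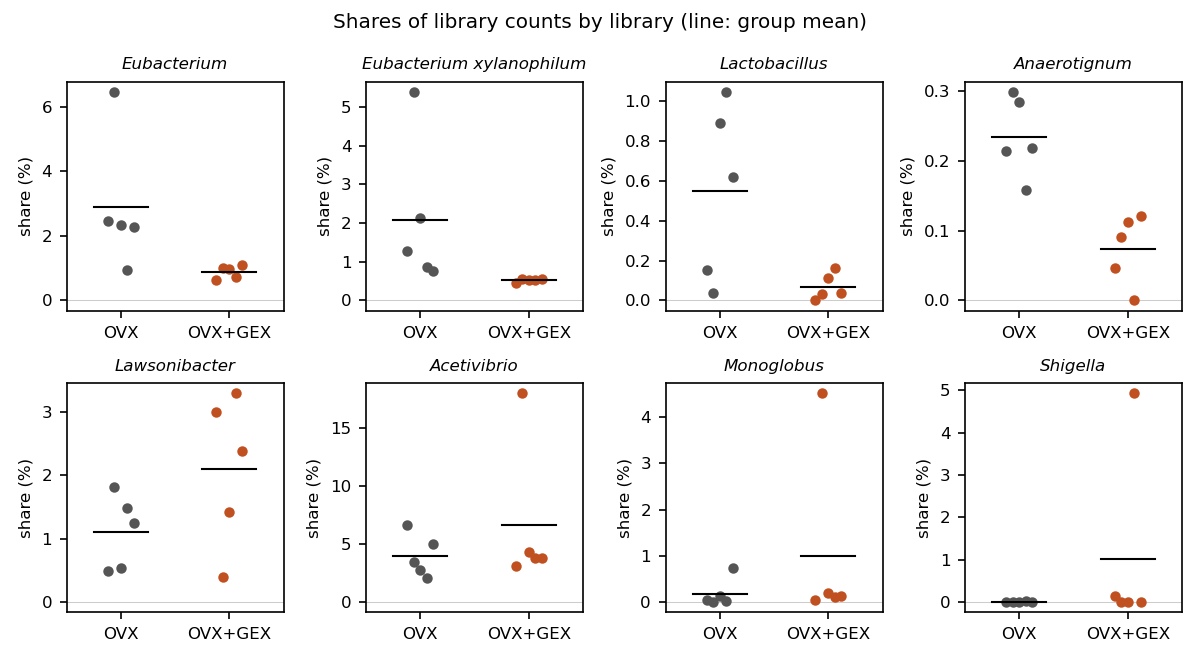
Share of library counts in percent (y axis, 1 scale per panel) for 8 taxa in the 5 OVX and 5 OVX+GEX libraries, where each point is a library and the line is the group mean. OVX+GEX points lie in a narrow low band for Eubacterium xylanophilum, and the OVX+GEX means of Acetivibrio, Monoglobus and Shigella are set by 1 library each.

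Anaerotignum, a genus with propionate-forming relatives, was the only tested genus whose groups did not overlap, and it is named after its values were seen. It held 0.213%, 0.298%, 0.283%, 0.158% and 0.218% of the OVX libraries and 0.0470%, 0.0902%, 0.113%, 0% and 0.121% of the OVX+GEX libraries. Every treated library lay below every untreated one, a pattern that 1 of 81 genera showed in this direction (1.23%) and 0 (0%) in the other. The OVX+PBS libraries, also without GEX, held 0.129%, 0.187%, 0.0685%, 0.0935% and 0.147% and overlapped the OVX+GEX libraries. The log2 fold change was -1.41 (SE 0.83, edgeR adjusted p = 0.566), and its counts in both groups were named Anaerotignum faecicola, the other species without overlap. Haploplasma, a wall-less bacterium related to the acholeplasmas, had 29, 7, 0, 8 and 9 counts in OVX libraries 1 to 5 and 0 in all 5 OVX+GEX libraries. Its share was at least 3.18-fold lower under GEX, with 3 counts per library as the floor, and at least 1.90-fold lower without OVX 1. Its edgeR adjusted p was 0.216, and limma gave 0.0234, within a range of 0.0234 to 0.667 over the alternatives. Haploplasma also had 0 counts in every Sham and OVX+PBS library.

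Several genera with higher estimates under GEX owed them to 1 library. Shigella, a name that 16S sequences hardly separate from Escherichia, had 3 counts in OVX 4, 14 in OVX+GEX 1 and 419 in OVX+GEX 4, and 0 in the other 7 libraries. OVX+GEX 4 alone was therefore 4.93% Shigella. Its estimate of 7.61 on the log2 scale (SE 2.50, adjusted p = 0.216 by edgeR) became 2.15 without that library. In OVX+PBS libraries 1 to 5, also without GEX, Shigella had 0, 0, 0, 23 and 98 counts. Monoglobus, a pectin degrader, held 4.51% of OVX+GEX 2 and at most 0.191% of the other treated libraries, against 0% to 0.726% in OVX. Its estimate of 2.78 on the log2 scale (SE 1.38, adjusted p = 0.503 by edgeR) became -0.52 without OVX+GEX 2. Acetivibrio, a genus of cellulose degraders, held 18.0% of that same library and 3.09% to 4.35% of the other treated ones, against 2.04% to 6.67% in OVX. Its estimate of 1.01 on the log2 scale (SE 0.53, adjusted p = 0.517 by edgeR) became 0.07 without it.

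Others rested on a few counts. Aminipila, an amino acid fermenter, had 3, 5 and 3 counts in OVX+GEX libraries 1, 2 and 5 and 0 in every OVX library (edgeR adjusted p = 0.216). It had 0, 2, 2, 2 and 0 counts in OVX+PBS libraries 1 to 5, also without GEX. Among the OVX and OVX+GEX libraries, Anaeroplasma, a wall-less genus, was seen in OVX+GEX 1 alone at 0.0564%. Bifidobacterium, a genus of carbohydrate fermenters, was seen among them in OVX+GEX 5 alone at 0.0464%. Both genera also had counts in Sham and OVX+FMT libraries. On the lower side, Anaerotaenia was seen in these 2 groups only in OVX 1 and OVX 5. Rossellomorea, a spore former of the Bacillaceae, reached 0.501% in OVX 3 and at most 0.0519% in the other libraries of these groups (both edgeR adjusted p above 0.5). Pseudoflavonifractor phocaeensis, an oscillospiral species, averaged 0.0364% in OVX+GEX and had 0 counts in OVX (adjusted p = 0.422).

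Genera with trimethylamine-forming members held similar sums in both groups. Their summed share was 1.84%, 13.0%, 3.98%, 1.23% and 2.81% in OVX libraries 1 to 5 and 3.16%, 11.6%, 3.74%, 6.75% and 0.566% in OVX+GEX libraries 1 to 5. Library 2 was the highest in both groups, and the means were 4.58% ± 4.85 and 5.17% ± 4.24 (SD, n = 5 each). The difference of 0.590 percentage points became 2.71 without OVX 2 and -1.03 without OVX+GEX 2. Of 15 genera listed, 7 were in the table and 5 were tested; 0 passed, and 4 estimates were higher and 1 lower, with a median of 0.25 against 0.13 over all genera. With plain totals the split was 2 higher and 3 lower. Lachnoclostridium, which carried most of the sum, averaged 3.47% ± 3.87 and 3.17% ± 3.53, with no settled direction. It held 10.3% of OVX 2 and 9.00% of OVX+GEX 2. Of its means, 2.37% in OVX and 2.43% in OVX+GEX were named Clostridium scindens, whose counts also enter the bile acid dehydroxylators below. Hungatella averaged 0.678% and 0.668%, Enterocloster 0.351% and 0.133%, and Clostridium 0.0646% and 0.114%, all with an edgeR adjusted p above 0.9. In OVX+GEX most of the remainder was Shigella, whose 4.93% made up most of the 6.75% in OVX+GEX 4. Libraries of this kind do not measure TMAO.

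**Figure D4:**
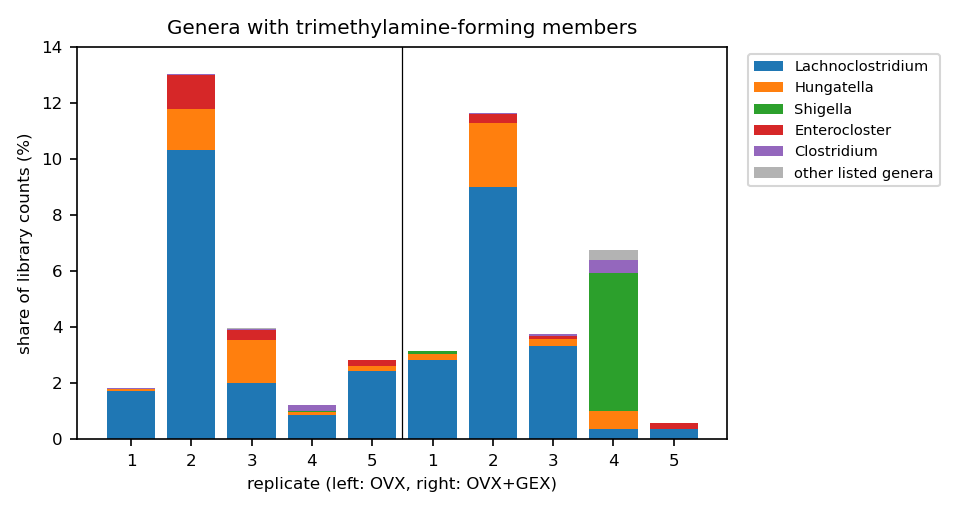
Stacked bars of the genera with trimethylamine-forming members in the 5 OVX and 5 OVX+GEX libraries, in percent of library counts. Lachnoclostridium makes up most of the highest bars, OVX 2 at 13.0% and OVX+GEX 2 at 11.6%, while the OVX+GEX 4 bar of 6.75% is mostly Shigella.

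Butyrate producers, which supply the colon wall with its main fuel, also kept similar sums, 9.96% ± 5.86 in OVX and 10.1% ± 3.20 in OVX+GEX (SD, n = 5 each). Of 9 tested, 0 passed, 5 had higher and 4 lower estimates, and the median was 0.17 against 0.13 over all genera. With plain totals 4 were higher and 5 lower, with a median of -0.10. The difference of the sums, 0.154 percentage points, lay between -1.03 without OVX+GEX 1 and 2.56 without OVX 2. Kineothrix, the largest of them, held 2.04%, 9.23%, 6.45%, 1.94% and 0.923% in OVX and 8.01%, 8.58%, 3.34%, 4.99% and 1.99% in OVX+GEX (log2 fold change 0.52, SE 0.72, edgeR adjusted p = 0.936). Its estimate on the log2 scale was 0.157 without OVX+GEX 2 and 1.12 without OVX 2. Lawsonibacter, a butyrate former, held 0.489%, 1.82%, 0.533%, 1.48% and 1.24% in OVX and 3.00%, 0.401%, 1.42%, 3.29% and 2.39% in OVX+GEX. The 3 highest of its values were treated libraries but so was the lowest, and the log2 fold change was 1.14 (SE 0.71, edgeR adjusted p = 0.591). Anaerostipes averaged 1.03% and 1.23%, Roseburia 0.623% and 0.370%, and Butyribacter 0.0196% and 0.0322%. Intestinimonas was seen in 4 OVX libraries and in OVX+GEX 5 alone (log2 fold change -1.90, SE 1.38, edgeR adjusted p = 0.719).

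The remaining functional lists gave no genus past the test. Acetogens, which build acetate from hydrogen and carbon dioxide, held 1.96% ± 0.983 in OVX and 1.17% ± 0.575 in OVX+GEX, and both tested members had lower estimates. Blautia, the larger of the pair, was estimated at -0.51 on the log2 scale (SE 0.65, adjusted p = 0.936 by edgeR). Polyphenol converters, which transform plant phenolics such as the isoflavone daidzein, held 0.821% ± 0.304 and 1.07% ± 0.478. Among them Adlercreutzia held 0.80%, 0.533%, 1.07%, 0.919% and 0.249% in OVX and 0.498%, 1.46%, 1.09%, 0.377% and 1.45% in OVX+GEX (log2 fold change 0.77, SE 0.52, edgeR adjusted p = 0.697). Flavonifractor averaged 0.103% and 0.0961% with no settled direction. Plant fibre degraders summed to 15.5% ± 4.54 and 17.5% ± 6.93, with 2 of 4 estimates higher, and mucus-associated genera to 3.88% ± 1.68 and 4.04% ± 1.73, with 3 of 4 higher. Lactic acid bacteria and bifidobacteria summed to 25.4% ± 13.0 and 29.3% ± 13.7, nearly all Ligilactobacillus. Lactococcus averaged 0.0209% and 0.0194%. Family XIII relatives, amino acid fermenters led by Ihubacter, held 0.760% ± 0.184 and 0.988% ± 0.521. Clostridium scindens, a bile acid dehydroxylator filed under Lachnoclostridium, averaged 2.37% ± 2.95 and 2.43% ± 3.15. None of the reagent contaminants listed was in the table.

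Many individual sequence variants were seen in one group alone. Of 965 ASVs seen in the 10 libraries, 376 were in both groups and held 91.2% of OVX and 90.7% of OVX+GEX counts. A further 334 were seen in OVX alone and 255 in OVX+GEX alone, holding 8.78% and 9.32% of their group's counts, and 495 were seen in 1 library only. The 29 ASVs present in all 10 libraries held 56.3% and 54.8%. Kineothrix alone had 97 ASVs, 38 in both groups, 34 in OVX alone and 25 in OVX+GEX alone.

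Some variants were found in most libraries of one group and few of the other, and these are described after their values were seen. Of the 965 seen, 7 ASVs were in at least 4 OVX and at most 1 OVX+GEX libraries (0.725%), and 8 were the other way round (0.829%). In Oscillibacter valericigenes, an oscillospiral that forms valerate, ASV_66 was in 4 OVX and 0 OVX+GEX libraries, whereas ASV_56 was in 1 OVX and 5 OVX+GEX libraries. ASV_66 was at least 8.19-fold lower (at least 5.47-fold without OVX 5, edgeR adjusted p = 0.202). DESeq2 called it with a log2 fold change of -21.9 (adjusted p = 2.03e-16), within a range of 2.03e-16 to 0.289 over the alternatives. That fold change rests on 0 counts in every OVX+GEX library and is not a measured size, so its p is no guide to strength. In OVX+PBS libraries 1 to 5, also without GEX, ASV_66 had 0, 0, 0, 50 and 2 counts. DESeq2 gave nearly the same against these, a log2 fold change of -21.2 (adjusted p = 2.66e-15). In Kineothrix alysoides, ASV_54 was in 1 OVX and 5 OVX+GEX libraries, at 0.148% in OVX 4 and 0.0371% to 3.10% in the treated libraries. ASV_71 and ASV_84 of the same species were each in 1 OVX and 4 OVX+GEX libraries. In OVX+PBS libraries 1 to 5, ASV_54 had 75, 3, 59, 0 and 0 counts. There ASV_71 had 38, 0, 53, 0 and 0, and ASV_84 had 32, 0, 38, 0 and 0. ASV_53 of Eubacterium xylanophilum was in 5 OVX libraries, at 0.108% to 0.336%, and in OVX+GEX 2 alone, at 0.190%.

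Only 1 of 379 ASVs had every treated library lower than every untreated one (0.264%), and 1 had every treated library higher (0.264%). The first was ASV_120 of Schaedlerella arabinosiphila, an arabinose user, in all 5 OVX libraries and no OVX+GEX library, and at least 7.17-fold lower (edgeR adjusted p = 0.202). Of its 121 counts 98 were in OVX 2, and without that library it was at least 1.83-fold lower. The second was ASV_133 of Adlercreutzia, with 0, 0, 6, 8 and 0 counts in OVX and 18, 54, 34, 11 and 12 in OVX+GEX (log2 fold change 3.32, SE 2.01, edgeR adjusted p = 0.445). In OVX+PBS, also without GEX, ASV_133 had 31, 53, 25, 0 and 0 counts, overlapping OVX+GEX. ASV_120 had 7, 29, 0, 0 and 0 counts there. ASV_77 of Eubacterium xylanophilum was at least 21.6-fold lower, with 78.8% of its counts from OVX 2, and at least 5.69-fold lower without it. Its counts were 75, 293, 0, 4 and 0 in OVX libraries 1 to 5 and 0 in every OVX+PBS library. ASV_139 of Monoglobus was at least 14.8-fold higher, with 90.7% of its counts from OVX+GEX 2, and at least 1.94-fold higher without it. It had 0 counts in every OVX+PBS library. ASV_100, ASV_114, ASV_161 and ASV_174 were the other variants with the smallest p, all at an edgeR adjusted p of 0.202, as were ASV_77 and ASV_139. No ASV was past the adjusted threshold under edgeR.

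**Figure D5:**
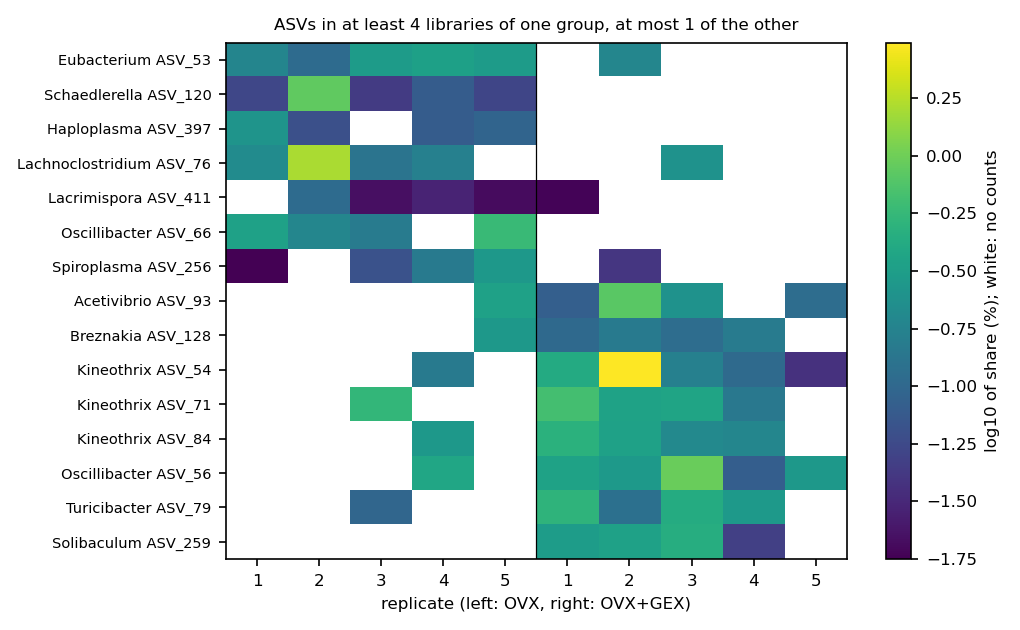
Heat map of the 15 ASVs seen in at least 4 libraries of one group and at most 1 of the other, with the 5 OVX and 5 OVX+GEX libraries as columns and share of library counts as colour. The 7 ASVs of the OVX side and the 8 of the OVX+GEX side form opposite blocks because they were selected so. Each side holds an Oscillibacter variant (ASV_66 and ASV_56).

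The ovariectomised group given PBS, a buffered saline, was a further group without GEX, and the comparison with it uses the same OVX+GEX libraries. Under edgeR 0 of 81 genera passed (0%), with 12 at an unadjusted p under 0.05 (14.8%), and limma called 0. DESeq2 called Lactobacillus, with a log2 fold change of -3.68 (adjusted p = 0.00793), and Eubacterium, with -1.61 (adjusted p = 0.0403). Lactobacillus held 0.198%, 1.64%, 0.240%, 1.16% and 0.374% of the OVX+PBS libraries, all above the highest OVX+GEX library at 0.165%. How many of the 81 genera were without overlap against OVX+PBS was not counted, so this separation has no background share beside it. Its edgeR log2 fold change against OVX+PBS was -3.42 (SE 1.03, adjusted p = 0.192). Eubacterium held 3.20%, 3.55%, 2.85%, 0.643% and 1.97% of the OVX+PBS libraries, of which 4 lay above every treated library. Its edgeR log2 fold change was -1.39 (SE 0.57, adjusted p = 0.246). In Sham the means were 0.173% ± 0.136 for Lactobacillus and 3.23% ± 1.22 for Eubacterium (SD, n = 5 each).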

How the data were processed

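Full-length 16S rRNA gene amplicons from feces were sequenced on a PacBio instrument, per the labels. The authors deposited read counts per ASV with taxonomy columns, in a count table converted from BIOM, per the file headers. Subread stands in the submitters' processing notes without version or role. No source used here names the denoiser, primers or taxonomy database. Counts of 1 were absent from the table (0 values of 1, 464 of 2). No column was unmapped.

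Counts were summed per genus, species and family. Features with at least 3 counts in at least 5 of the 25 libraries were tested in 1 fit over all groups with edgeR 4.0.16 (TMM, quasi-likelihood F test, R 4.3.3), with Benjamini-Hochberg adjustment and a threshold of 0.05. DESeq2 1.42.0, limma 3.58.1 (centred log-ratios, 0.5 added), other scalings and filters, a replicate block and left-out libraries were alternatives. The code was tested on simulated data. Community measures used exact permutation of the 10 libraries. Same-numbered libraries deviated together only weakly (correlations over 57 genera of 0.100 to 0.345), and OVX+GEX 2 correlated best with OVX 3. The numbers were taken to pair libraries, though the labels do not say what a number marks. The p-values in the Results are from tests without this pairing. With the pairing kept in the exact permutation, p was 0.1875 for R2, against 0.643 without it. For the share of the most abundant ASV it was 0.25, against 0.484. Adjusted p over the 6 community measures was then 0.5 to 0.75. The block changed no call.

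Taxa were named by rule: the 10 most abundant genera, those with the smallest p each way (5 genera, 3 species, 4 ASVs), families of at least 1%, members of the functional lists, and taxa confined to 1 group or library. Taxa without overlap were added later. Members and lists were chosen with earlier results of these data known.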

Additional observations from a re-analysis of the deposited data

Results flagged for a closer look

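In 21 of 112 groups of 5 libraries examined, 1 library stood far from the other 4 by Dixon's gap test. Chance gives about 1 in 20 for values spread normally, a rate that does not hold for taxa seen in few libraries or named because 1 library held them. In 6 of the 21 the other 4 libraries had 0 counts, so that passing was fixed. OVX 2 stood highest of its group for the Shannon index (4.92), Eubacterium and its family Eubacteriaceae (6.46% for both), Lachnoclostridium (10.3%), the bile acid dehydroxylator Clostridium scindens (7.59%) and the summed trimethylamine-forming genera (13.0%). OVX+GEX 2 stood highest for Acetivibrio (18.0%), Monoglobus (4.51%), Hungatella (2.28%) and Rossellomorea (0.0200%). OVX+GEX 4 stood highest for Shigella (4.93%) and Clostridium (0.471%), and OVX 4 for the same genera in its group, at 0.0296% and 0.227%.

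The others were single values. In OVX they were Butyribacter (0.0978%) and Bacteroidaceae (1.84%) in OVX 1, Rossellomorea (0.501%) in OVX 3 and Monoglobus (0.726%) in OVX 5. In OVX+GEX they were Anaeroplasma (0.0564%) in OVX+GEX 1, and Bifidobacterium and Intestinimonas (0.0464% each) in OVX+GEX 5.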

How the results depend on the processing

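The count of genera past the threshold in OVX+GEX against OVX was 0 and became 1 with limma (Haploplasma) and 1 without a filter (Shigella). For ASVs it became 2 with DESeq2 (ASV_47, ASV_66), 1 without a filter (ASV_21) and 2 in a fit of only the groups compared (ASV_139, ASV_77). For families it became 1 with limma (Acholeplasmataceae) and 1 in a fit of only the groups compared (Enterobacteriaceae), and against OVX+PBS 2 genera passed with DESeq2. The replicate block changed no call, and the pairing by number left 0 genera, species, families and ASVs past the threshold.

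Some values changed sign, and the cause was not tested. The within-group distance difference was -0.0114 with Jaccard distances and -0.00625 to 0.0836 with single libraries left out, and the Shannon difference was -0.184 to 0.0613. On the log2 scale, Anaerobacterium was -0.021 with TMMwsp and -0.034 with plain totals, Flavonifractor -0.055 and -0.102, and Lactococcus 0.023 with TMMwsp. With limma, plain totals and the block in turn, Hungatella was -0.656, -0.021 and -0.272, and Lachnoclostridium -0.437, -0.128 and -0.302. Clostridium was -0.072 with limma. Clostridium scindens was -1.43 with limma, -0.035 with only the groups compared and -0.097 with the block. Ruminococcus was 0.070 with DESeq2 and with its size factors, 0.107 with TMMwsp, 0.168 with a filter of 10 and 0.131 without one.

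With single libraries left out, the log2 fold changes that changed sign ran from -0.136 to 0.578 for Akkermansia, -0.126 to 0.253 for Anaerobacterium, -0.073 to 0.869 for Anaerostipes, -0.265 to 5.10 for Butyribacter, -1.29 to 2.43 for Clostridium and -1.24 to 0.231 for Duncaniella. They ran from -1.71 to 0.314 for Enterocloster, -0.157 to 0.496 for Flavonifractor, -1.29 to 0.821 for Hungatella, -1.23 to 1.04 for Lachnoclostridium and -0.992 to 0.280 for Lactococcus. For Monoglobus they ran from -0.525 to 4.45, for Ruminococcus from -0.460 to 0.350 and for Clostridium scindens from -0.486 to 1.21. Depth limits genera of a few counts: 0 counts in the library of 8498 allows a share of up to 0.0353%.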

Other observations

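Variants of less abundant genera also lay mostly in one group, and they are named after their values were seen. ASV_259 of Solibaculum mannosilyticum had 0 counts in every OVX library and held 0.310%, 0.341%, 0.439%, 0.0471% and 0% of OVX+GEX libraries 1 to 5. ASV_79 of Turicibacter sanguinis, a small-intestinal bacterium, held 0.508%, 0.120%, 0.428%, 0.282% and 0% of the treated libraries and 0.0979% of OVX 3 alone. ASV_128 of Breznakia pachnodae held 0.103% to 0.153% of 4 treated libraries and 0.280% of OVX 5 alone. On the other side, ASV_256, placed with Spiroplasma eriocheiris, a wall-less bacterium, was in 4 OVX libraries at 0.0178% to 0.280% and in OVX+GEX 2 alone at 0.0401%. ASV_411 of Lacrimispora aerotolerans was in 4 OVX libraries at 0.0207% to 0.108% and in OVX+GEX 1 alone at 0.0188%. None of these ASVs had an edgeR adjusted p under 0.05.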
